A study of Mus musculus with 4 samples.

Results

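Cycling *Dlx*-positive subpallial progenitors were examined in single-cell RNA-Seq of CD24+ CD45- cells sorted from the cortex of mouse fetuses at E18.5. The cells were selected on their measured values: at least 1 unique molecular identifier (UMI, the tag that counts a captured transcript once) of *Top2a*, *Dlx1* and *Dlx2*, and none of *Eomes* and *Neurog2*. Of 6562 cells in the table, 708 met this rule. They were 187 cells of library WT3 and 206 of WT6, both Setd5+/+, and 189 of Het5 and 126 of Het9, both Setd5+/-. Each library came from 1 fetus on a C57BL/6J background, with 2 fetuses per genotype. The Setd5+/- fetuses carried 1 disrupted copy of *Setd5*, that of the Setd5GFP mouse line, and no other allele or agent is named for either genotype. The comparison asks how loss of 1 copy of *Setd5*, a chromatin regulator linked to autism, shows in these dividing cells. CD24 is a pan-neuronal surface protein and CD45 a hematopoietic one. The sort therefore favors cells of the neuronal lineage, and the share of progenitors in the tissue cannot be read from it.

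The ganglionic eminences, the ventral swellings of the fetal telencephalon, hold the progenitors of GABAergic interneurons and of striatal and olfactory bulb neurons. *Dlx1* and *Dlx2* encode homeodomain factors that commit these progenitors to the GABAergic lineage, and *Dlx5* and *Dlx6* act after them. *Top2a* encodes the topoisomerase that untangles DNA before chromosomes separate, and its transcript builds up from S phase to mitosis. *Eomes* and *Neurog2* mark the glutamatergic lineage of the dorsal telencephalon, the pallium. Ganglionic eminence progenitors leave the ventricular surface and keep dividing in the subventricular zone, where they still express *Dlx* genes.

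The libraries held 8205330 to 11742956 UMIs. In 224 cells, 56 of each library, the barcode occurred in all 4 libraries, and these cells were left out by the rule, which left 6338. None of the 224 carried the required gene pattern, so the 708 cells are the same with them. Of the 708 cells, 706 had a barcode found in 1 library only. The other 2, both in Het9, had barcodes that 1 other library also held, in cells that were not selected. *Xist* was near 0 in both Setd5+/- libraries and *Ddx3y* was at 0 in both Setd5+/+ libraries. Genotype and fetal sex therefore cannot be told apart in any comparison of genotypes given here. The labels name the fetuses as replicates of a genotype, and with 2 per genotype the smallest p an exact two-sided permutation test over libraries can give is 0.333.

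A cycling *Dlx*-positive cell had a median of 7051.5 UMIs (range 1615 to 14637) and 2533.5 detected genes. Library medians of UMIs were 6672 in WT3, 7342.5 in WT6, 7375 in Het5 and 6769.5 in Het9. The depth of the 4 libraries was thus similar in these cells. The first set they were compared with is the 808 *Dlx1* and *Dlx2* cells without a UMI of *Top2a* and of the pallial genes (median 4630.5 UMIs). The other is the 259 cycling pallial cells (median 7814 UMIs), which had *Top2a*, neither *Dlx* gene, and *Eomes*, *Neurog2* or the pallial regulator *Emx1*. Levels are mean counts per 10000 UMIs (CP10k) over the cells of a library, or over all cells of a set where no library is named. Since the 3 sets were chosen by gene values, their differences are a description and were not tested.

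The regulatory sequence just upstream of cell cycle genes is shown first, because genes of S phase and genes of G2 and mitosis divide these cells below. Genes of G2 and mitosis are known to be controlled through a CHR element, written here as TTTGAA, often with CCAAT boxes, and S phase genes through E2F sites. Below are 120 bases before the first listed start of 4 genes of the G2 and mitosis class and of 3 S phase genes, from RefSeq on GRCm38.p6, on the strand of the gene. Capitals mark the CHR and CCAAT letters and the E2F letters TTTGGCGC, TTTCCCGC, TTTCGCGC or TTCCCGCC on either strand, where overlapping matches run together.
Top2a, chr11:99024190-99024309, minus strand: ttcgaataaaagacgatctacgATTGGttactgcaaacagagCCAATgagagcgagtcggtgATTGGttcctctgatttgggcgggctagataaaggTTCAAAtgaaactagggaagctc
Cdk1, chr10:69352913-69353032, minus strand: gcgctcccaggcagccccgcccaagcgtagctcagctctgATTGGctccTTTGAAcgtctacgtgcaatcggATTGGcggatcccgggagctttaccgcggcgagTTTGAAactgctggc
Ube2c, chr2:164769809-164769928, plus strand: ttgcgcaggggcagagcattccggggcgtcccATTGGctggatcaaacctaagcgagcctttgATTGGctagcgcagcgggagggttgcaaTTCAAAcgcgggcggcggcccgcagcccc
Cdc20, chr4:118437344-118437463, minus strand: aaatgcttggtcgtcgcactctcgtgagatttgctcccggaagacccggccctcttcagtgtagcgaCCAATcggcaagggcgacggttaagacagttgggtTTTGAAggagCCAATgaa
Mcm6, chr1:128359706-128359825, minus strand: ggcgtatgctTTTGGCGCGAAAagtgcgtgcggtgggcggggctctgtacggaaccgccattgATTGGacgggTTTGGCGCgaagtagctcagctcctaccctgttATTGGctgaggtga
Uhrf1, chr17:56303217-56303336, plus strand: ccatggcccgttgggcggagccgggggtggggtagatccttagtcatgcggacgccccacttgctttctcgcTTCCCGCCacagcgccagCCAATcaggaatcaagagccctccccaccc
Hells, chr19:38930870-38930989, plus strand: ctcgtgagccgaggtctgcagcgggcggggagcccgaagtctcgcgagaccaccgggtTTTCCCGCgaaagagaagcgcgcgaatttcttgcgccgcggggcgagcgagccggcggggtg

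The letters were counted in the whole promoter window, from 250 bases before to 50 bases after the start. TTTGAA stood in 29 of the 36 promoters found for the 42 genes of G2 and mitosis including *Top2a* (80.6%). It stood in 3 of the 27 promoters found for the 38 S phase genes (11.1%) and in 18.1% of all 27025 promoters. An E2F letter string stood in 1 of the 36 (2.78%), in 14 of the 27 (51.9%) and in 3.57% of all. CCAAT stood in 83.3%, 66.7% and 37.9%. A match says only that the letters are there, and binding was not measured.

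The marker genes placed the cells where the rule put them. *Top2a* (chr11:98992943-99024189 on GRCm38) had a median of 8 UMIs per cell (1 to 36), and its level was 13.7 CP10k in WT3, 11.0 in WT6, 11.8 in Het5 and 12.3 in Het9. *Dlx1* (chr2:71528113-71533981) was at 8.13, 7.80, 7.93 and 7.16 in the same order. Its neighbor *Dlx2* (chr2:71543408-71546754) was at 8.80, 8.47, 8.51 and 9.07. All 3 are values the rule used. Genes it did not use gave the same picture: *Mki67*, the antigen of dividing cells, was at 3.36, 2.71, 3.07 and 2.98, against 0.220 in the *Dlx*-positive cells without *Top2a*. *Cdk1*, the kinase that starts mitosis, was at 3.79, 3.87, 3.23 and 4.08. *Ube2c*, which supplies ubiquitin for mitotic exit, was at 12.1, 10.8, 11.8 and 11.7. The 4 libraries lay close together in each, whatever the genotype.

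The subpallial identity was equally plain. *Dlx5* stood at 2.19, 2.36, 2.36 and 1.89 CP10k, and at 0.0104 in the cycling pallial cells. *Dlx6os1*, the noncoding RNA of the *Dlx5* and *Dlx6* locus, was at 4.83, 4.30, 4.84 and 5.27. The zinc finger gene *Sp9* was at 3.78, 3.16, 3.47 and 4.0, against 0.0887 in cycling pallial cells for each of the last 2. *Gad2*, which encodes an enzyme that makes GABA, was at 1.43, 1.47, 1.56 and 1.74, so these dividing cells already held transcripts of the transmitter pathway. *Gsx2*, a regulator of the lateral eminence that acts before *Dlx* genes, was found in 16.7%.

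Most markers of other cell types were low. *Emx1*, a pallial regulator, was at 0.0366, and *Neurog1* was at 0 in every library. The 2.1 of *Emx1* in cycling pallial cells was set in part by their choice, which used this gene. *Fabp7* and *Lhx2*, high in dividing cells of the pallium at 19.7 and 6.38, were at 2.42 and 0.537. Of 5 oligodendrocyte genes 4 were above 0, with *Sox10* at 0, and they summed to between 0.398 and 0.616 CP10k. One of them, *Olig2*, which ventral progenitors also express, had a UMI in 21.0% of the cells. Of 4 Cajal-Retzius genes 1 was above 0, with *Trp73*, *Lhx1* and *Lhx5* at 0 and a sum of at most 0.0121. Of 4 melanocyte genes 2 were above 0 (sum at most 0.0173, *Mlana* and *Tyrp1* at 0), and of 4 endothelial genes 1 (at most 0.0148, *Cldn5*, *Flt1* and *Kdr* at 0). Of 2 mural genes 1 was above 0, with *Rgs5* at 0 and a sum of at most 0.0549. All 7 immune genes were above 0 and summed to between 0.0373 and 0.122. *Neurod6*, of pallial neurons, had a UMI in 12.7% of the cells at a level of 0.304. The rule did not use it. Without the cells that had a UMI of *Neurod2*, *Neurod6* or *Tbr1*, the genotype comparison called 15 genes against 8, and all 8 were among the 15. The 5 erythroid genes summed to 31.8 CP10k in WT3, 5.79 in WT6, 4.66 in Het5 and 11.9 in Het9. A UMI of *Hbb-bs* was present in 88.0% of the cells. A single WT3 cell carried 1600 CP10k of *Hba-a1*, and without it the level of that gene in WT3 fell from 10.3 to 1.72.

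**Figure D1:**
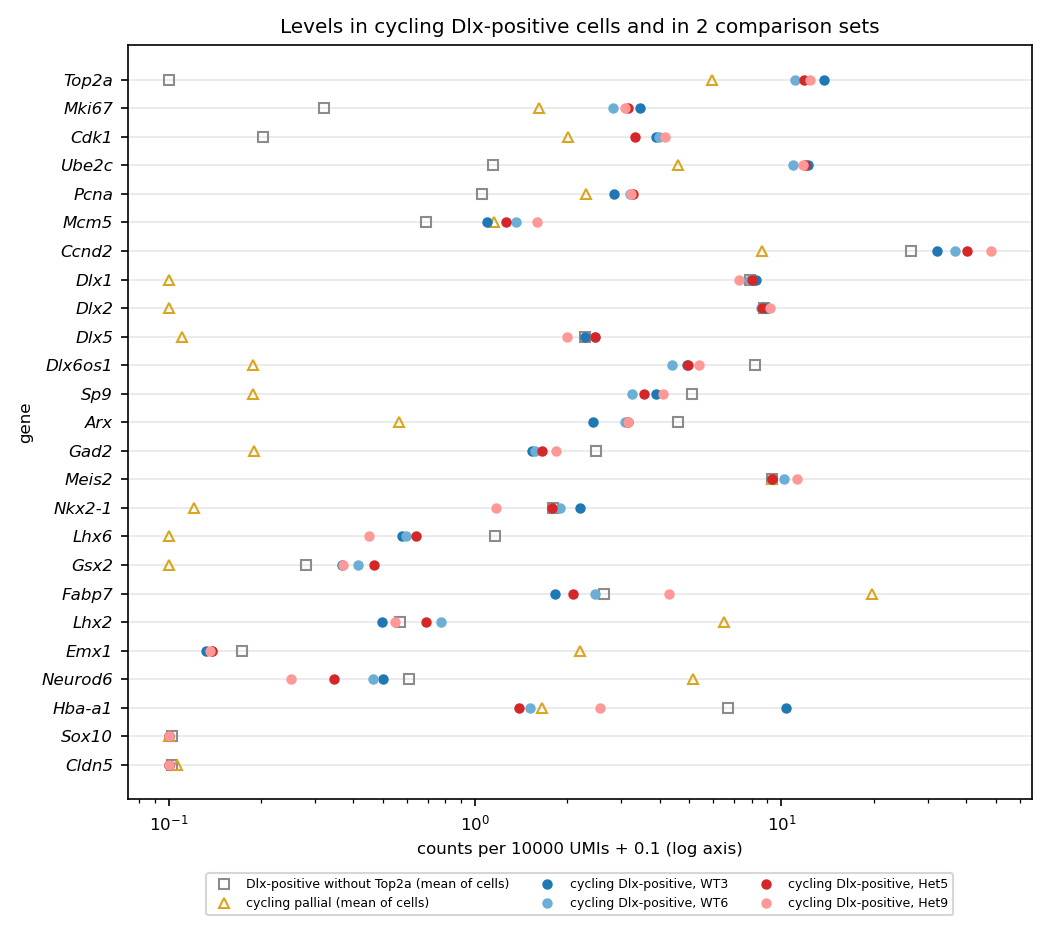
Levels of marker genes. The x axis is the mean counts per 10000 UMIs plus 0.1 on a log axis. Filled points are the cycling *Dlx*-positive cells of each library, squares the *Dlx*-positive cells without *Top2a* and triangles the cycling pallial cells. The cell cycle genes lie right of the squares, the *Dlx* genes lie right of the triangles, and *Hba-a1* stands apart in WT3.

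*Sox2* was widely detected, while the Notch targets *Hes5* and *Hes1* were found in few cells. *Sox2*, a factor of neural progenitors, was detected in 88.0% of them at 4.61, 4.74, 4.4 and 4.56 CP10k. *Nes* was detected in 31.1%, but *Hes5* and *Hes1*, the Notch targets that mark radial glia, were detected in 5.37% and 1.98%. Other genes of radial glia were found more often, with *Vim*, an intermediate filament, in 80.2% and *Fabp7*, a fatty acid binding protein, in 54.8%. In the cycling pallial cells *Hes5* was found in 27.0%, at a median depth of 7814 UMIs against 7051.5. *Tubb3*, a tubulin of neurons, had 16.7 CP10k, between the 7.29 of the cycling pallial cells and the 34.5 of the *Dlx*-positive cells without *Top2a*. By UMIs, which are counted at the 3' end and do not scale with transcript length, the highest nuclear genes outside the ribosomal ones were *Malat1* (172), *Ptma* (89.5), *Stmn1* (83.4), *Tmsb4x* (73.3) and *Tubb5* (67.9).

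Against the *Dlx*-positive cells without *Top2a*, genes were ranked by the ratio of levels (0.1 CP10k added to both). *Nusap1*, which binds spindle microtubules, led at 3.89 against 0.0578, a ratio of 25.3. *Prc1* of the central spindle (21.3), *Spc25* of the kinetochore (20.0), *Cdk1* (18.8), the histone gene *Hist1h2ap* (18.1) and *Aurkb* (15.3), a mitotic kinase, followed, and *Fbxo5*, *Hist1h1b* and *Pbk* were also among the first 10. In the other direction *Ina*, a neurofilament protein, came first at 0.271 against 2.21, a ratio of 6.23. *Zic4* (5.56), *Ly6h* (4.5), *Fgf15* (4.44), *Htr3a* (4.33) and *Ank3* (4.25) followed, and *Tubb2a*, *Pcsk1n*, *Mapt* and *Zic1* completed that 10. Het9 had little of some of these in either set, with *Fgf15* at 0 in both and *Zic4* at 0 against 0.0442, while WT6 had 0.116 of *Zic4* against 1.46. *Tubb2a* and the microtubule protein gene *Mapt* were at 0.625 and 0.471 against 2.73 and 2.06.

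Against the cycling pallial cells, *Dlx6os1* led with a ratio of 25.7, followed by *Dlx5* (21.1), *Sp9* (19.4), the synaptic adhesion gene *Nrxn3* (18.4) and *Nkx2-1* (15.1), the regulator of the medial ganglionic eminence. *Pid1*, *Dlx6*, *Gad2*, *Slc18a2* and *Six3* completed the first 10. The genes lower by the largest ratio were *Aldoc* (0.0677 against 2.60), *Neurod6* (0.304 against 5.05), *Nrn1*, *Dmrta2* and *Neurod2*. Among genes of division, *Mki67* was at 1.52 in the cycling pallial cells.

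The edge of the rule was examined once. The 84 cells with a single UMI of *Top2a* had fewer UMIs (median 5107.5) than the 624 cells with 2 or more (7285.5). Their *Mki67*, *Cdk1* and *Ube2c* were at 0.977, 0.662 and 3.98 CP10k, against 3.30, 4.13 and 12.6 in the 624, and against 0.220, 0.104 and 1.05 in the cells just outside, those without *Top2a*. *Pcna*, the clamp of DNA polymerases, was at 2.94 in the 84 and 3.05 in the 624, and at 0.955 without *Top2a*. On the *Dlx* side, the 83 *Top2a* cells with only 1 of *Dlx1* and *Dlx2* had 21.8 CP10k of *Fabp7*. The 111 cells just inside, with 1 UMI of *Dlx1* or *Dlx2*, had 4.80. The 31 cells with *Top2a*, *Dlx1*, *Dlx2* and a UMI of *Eomes* or *Neurog2* had 2.65 CP10k of *Dlx5* and 2.53 of *Sp9*. The selected cells had 2.23 and 3.56. *Neurod6* was at 0.908 in the 31 against 0.304. Scrublet called 4 of the 31 doublets, and 16 of the 708 selected cells.

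The cells varied along the cell cycle. They were ranked by *Top2a* level and split into 3 bins of 236 cells, with limits at 6.94 and 15.4 CP10k. Median depths of the bins were 6464.5, 7411 and 7383.5 UMIs. The split used a gene of the same cells and is a description. All 41 genes of the G2 and mitosis list were higher in the top bin than in the lowest, in each of the 4 libraries, with a median log2 ratio of 1.47. Of the 38 S phase genes, 36 were lower in the top bin, 31 of them in all 4 libraries, with a median log2 ratio of -0.80.

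Named genes show the sequence from the lowest to the top bin. *Mcm2*, of the replicative helicase, went from 2.26 through 1.17 to 0.622 CP10k, and *Pcna* from 4.18 through 3.42 to 1.52. *E2f1*, which drives entry into S phase, went from 1.63 to 0.817 and 0.312. These genes of early S phase were thus highest where *Top2a* was lowest. *Ung*, which removes uracil from new DNA, went from 1.25 to 0.265 and 0.0227, the steepest decline of the list. On the other side, *Cdk1* went from 1.29 through 3.91 to 5.95 and *Cenpf*, of the kinetochore, from 2.91 through 6.48 to 11.8. *Ube2c* went from 3.68 to 10.7 and 20.4. The middle bin lay between the others in each of these genes.

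The promoters shown at the start belong to both ends of this sequence. *Cdk1*, *Ube2c* and *Cdc20*, with TTTGAA in the 120 bases printed, were among the 41 genes that were higher in the top bin. *Cdc20*, which activates the ligase that ends mitosis, was at 2.45 in the lowest and 5.54 in the top bin. *Mcm6* of the replicative helicase, *Uhrf1*, which keeps DNA methylation after replication, and *Hells*, a chromatin remodeler, carry E2F letters there. They went from 2.32, 2.61 and 2.02 in the lowest bin to 0.683, 0.684 and 0.698 in the top bin.

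The other lists were counted in the same way. Of all 7462 genes averaging 0.1 CP10k or more, 46.3% were higher and 53.7% lower in the top bin, with 12.2% and 15.6% so in all 4 libraries. Of 19 genes that govern G1, 7 were higher and 12 lower. *Cdkn2d* and *Cdkn2c*, inhibitors of the kinases Cdk4 and Cdk6, went from 0.759 through 2.28 to 3.30 and from 0.606 through 1.20 to 1.48. Their levels over all the cells were 2.11 and 1.10, against 0.537 and 0.0863 in the *Dlx*-positive cells without *Top2a*. *Ccnd2*, the D cyclin that these kinases need, was high throughout, at 41.6, 40.1 and 34.1. *Sox2* went from 3.33 through 4.85 to 5.57 and the homeobox gene *Six3* from 0.543 through 1.19 to 1.60. Of 39 ventral factors, 24 were higher and 15 lower, with 11 and 3 in all libraries, and of 17 progenitor and radial glia genes 4 were higher and 13 lower. *Fabp7* was among the lower ones, at 3.66, 1.91 and 1.70.

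**Figure D2:**
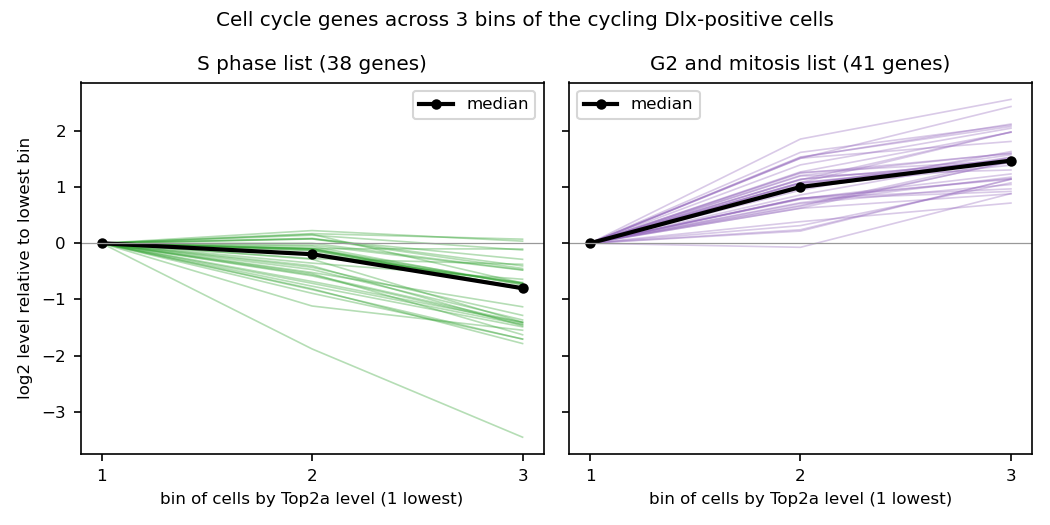
Cell cycle genes across 3 bins of the cells ranked by *Top2a* level. The y axis is the log2 level relative to the lowest bin, thin lines are genes and the black line is their median. The G2 and mitosis genes end above 0 in all 41 cases and the S phase genes below 0 in 36 of 38.

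Regional identity split the cells a second way. *Nkx2-1* (chr12:56531958-56536908) marks the medial ganglionic eminence, the source of most cortical interneurons, and its UMIs were found in 173 of the 708 cells. It was found in 1.54% of the cycling pallial cells at a median depth of 7814 UMIs. By library the share was 29.9% in WT3 (exact 95% binomial interval 23.5 to 37.1), 23.8% in WT6 (18.1 to 30.2), 24.3% in Het5 (18.4 to 31.1) and 17.5% in Het9 (11.3 to 25.2). These intervals cover counting error only. The split was made after values had been seen and is a description. Median depth was 6586 UMIs with and 7177 without *Nkx2-1*.

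Each of the other 6 medial eminence genes listed was higher with *Nkx2-1*, 3 of them in all 4 libraries, where 45.4% of all genes tested were higher and 8.15% in all libraries. *Lhx6*, a LIM homeodomain target of Nkx2-1 that interneurons need to migrate and mature, was at 1.72 CP10k with and 0.0764 without it. *Lhx8*, of cholinergic neurons, was at 1.44 against 0.0351. *Mbip*, *Sox6* and *Lmo1*, which are not on that list and were higher in all 4 libraries, were at 1.30, 1.05 and 4.84 against 0.236, 0.209 and 1.15. Of 16 genes listed for the lateral eminence, striatum and olfactory bulb, 14 were lower with *Nkx2-1*, 8 of them in all libraries, where 54.6% and 12.3% of all genes tested were. The 4 caudal eminence genes were divided, with *Prox1* (0.594 against 0.307) and *Htr3a* (0.115 against 0.0562) higher and *Nr2f1* (0.710 against 1.51) and *Nr2f2* (0.332 against 0.612) lower. Of 12 genes listed for ganglionic eminence progenitors in general, 4 were higher with *Nkx2-1* and 8 lower, with 4 and 6 in all libraries. *Sp9* was one of the higher ones, at 4.81 against 3.15. *Meis2*, a cofactor of lateral eminence development, was at 2.40 with and 12.2 without *Nkx2-1*, and *Pax6*, *Sp8* and *Six3* were at 0.0224, 0.0210 and 0.349 against 0.502, 0.444 and 1.36. Each of these 4 was lower with *Nkx2-1* in all 4 libraries.

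Of the 19 G1 regulators, 10 were higher and 9 lower with *Nkx2-1*, with 2 and 3 in all libraries and a median log2 ratio of 0.04. Values are given for a pair of them chosen after they were seen. *Ccnd2* was at 19.6, 17.9, 19.4 and 28.8 CP10k in the cells with *Nkx2-1* of WT3, WT6, Het5 and Het9. In the cells without it, it was at 37.6, 42.8, 47.1 and 52.3. It was thus lower with *Nkx2-1* in every library. *Cdkn1c*, an inhibitor of cyclin-dependent kinases, was the reverse, at 1.41 with against 0.646 without *Nkx2-1*, higher in all 4 libraries. *Hba-a1* was at 30.4 with and 1.65 without *Nkx2-1* in WT3, and the single cell with 1600 CP10k of it was one of those with *Nkx2-1*.

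**Figure D3:**
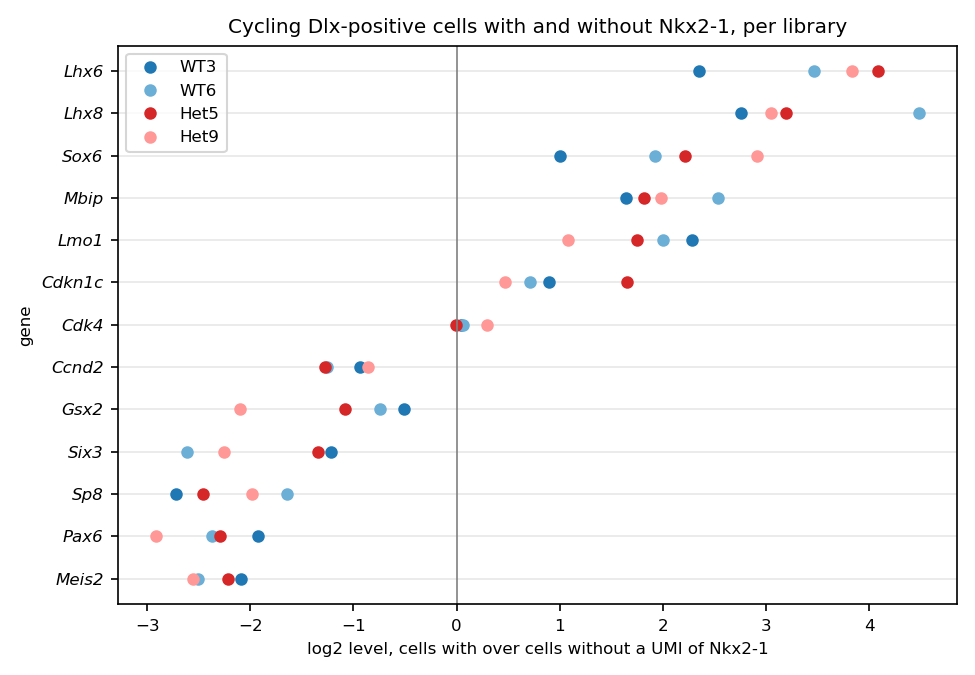
Genes in cycling *Dlx*-positive cells with and without a UMI of *Nkx2-1*. The x axis is the log2 ratio of levels, with over without, and each point is 1 library. *Lhx6*, *Lhx8*, *Sox6*, *Mbip*, *Lmo1* and *Cdkn1c* lie right of 0 and *Meis2*, *Pax6*, *Sp8*, *Six3*, *Gsx2* and *Ccnd2* left of 0 in all 4 libraries.

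The share of these cells overlapped between the genotypes at the depth measured. They were 13.4% of the cells of WT3 (exact 95% binomial interval 11.6 to 15.3), 10.9% of WT6 (9.49 to 12.3), 11.4% of Het5 (9.93 to 13.1) and 9.07% of Het9 (7.61 to 10.7). The Setd5+/- mean was 1.87 points below the Setd5+/+ mean, or -1.87 as a difference, with an exact two-sided permutation p of 0.667 over 4 libraries. With each cell thinned to 3000 UMIs the shares were 10.7%, 8.39%, 8.14% and 6.43% in the same order, and the genotypes no longer overlapped, Setd5+/- being the lower (-2.25 points, exact permutation p 0.333, the smallest that 4 libraries allow). Among *Dlx*-positive cells, those with *Top2a* were 50.4%, 40.7%, 52.4% and 45.3% in the order WT3, WT6, Het5 and Het9, a difference of 3.28 points (exact permutation p 0.667). Without WT6 or without Het5 that difference was -1.57 or -0.234 points. Among all cells with *Top2a*, the selected cells were 65.6%, 56.4%, 50.9% and 61.8%, a difference of -4.67 points (exact permutation p 0.667). That difference rests on single libraries. Het9 alone lay above the Setd5+/+ mean of 61.0%, and WT6 alone was level with the Setd5+/- mean of 56.4%. The share with *Nkx2-1* differed by -5.97 points (exact permutation p 0.667). It was smaller without Het9, with Het5 at 24.3% against a Setd5+/+ mean of 26.9%. Leaving out WT3 also made it smaller, with a Setd5+/- mean of 20.9% against 23.8% in WT6. Of the 14 shares compared in this way, none had a Benjamini-Hochberg adjusted p under 0.933, and with 4 libraries none could have passed. The genotypes did not overlap in 5 of them, the shares of cells with *Lhx6* (-4.81 points), *Olig2* (-3.50) and *Zic1* lower and those with *Mki67* (2.92) and *Gad2* (5.44) higher in Setd5+/-. For *Olig2* and *Mki67* 1 library carried much of the gap. Het5 had *Olig2* in 21.2% against a Setd5+/+ mean of 22.4%, and Het9 had *Mki67* in 76.2% against 74.6%. The largest gap of the 14 was in *Zic1*, found in 15.5%, 18.4%, 14.3% and 2.38%, where Het9 stood alone (-8.64 points, exact permutation p 0.333).

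**Figure D4:**
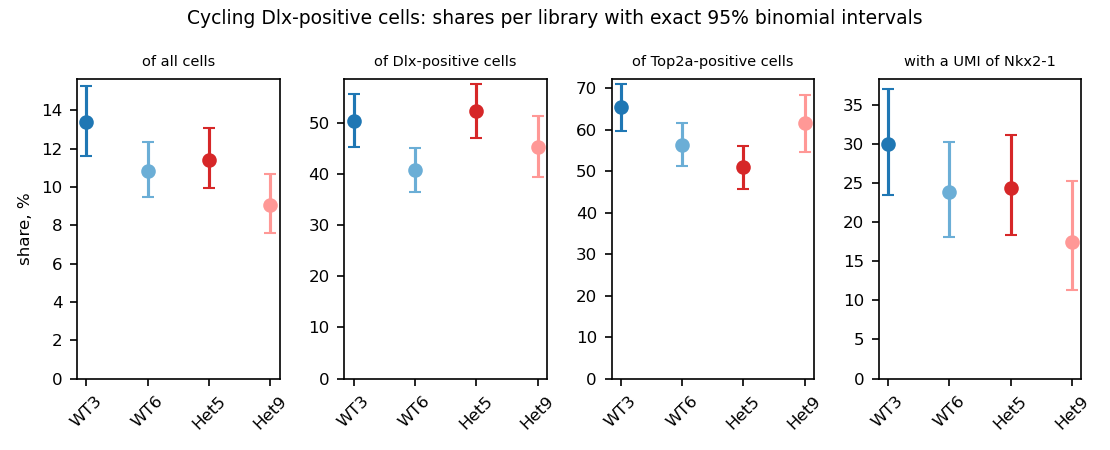
Shares of cycling *Dlx*-positive cells per library. The y axes are percentages of all cells, of *Dlx*-positive cells, of *Top2a*-positive cells and, last, the share of the selected cells with a UMI of *Nkx2-1*; bars are exact 95% binomial intervals. The Setd5+/- and Setd5+/+ points overlap in every panel, and Het9 is lowest in the first at 9.07% and in the last at 17.5%.

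The phase of the cells did not separate the genotypes. The share of cells with a G2 and mitosis score above the S phase score (each standardized over all the selected cells) was 56.7% in WT3, 44.7% in WT6, 48.7% in Het5 and 44.4% in Het9. The difference was -4.11 points with an exact permutation p of 0.667. Its direction rests on WT3, since WT6 alone lay below the Setd5+/- mean of 46.6%. A phase call of this kind reads transcript levels and does not measure division.

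*Setd5*, the targeted gene, was lower in the Setd5+/- cells. Its level (chr6:113077365-113153435, plus strand) was 1.24 CP10k in WT3, 1.24 in WT6, 0.602 in Het5 and 0.666 in Het9, and no Setd5+/- value reached a Setd5+/+ value. It fell by 0.87 on the log2 scale (SE 0.15, limma, adjusted p 0.00515), where levels are log2(mean CP10k + 0.1) and p-values are Benjamini-Hochberg adjusted over all genes tested. A UMI of *Setd5* was present in 55.6% and 58.7% of the Setd5+/+ cells and in 35.4% and 35.7% of the Setd5+/- cells. It was lower in both Setd5+/- libraries also among the cells with *Nkx2-1*, at 1.10 and 0.972 against 0.705 and 0.577, and among those without it, at 1.30 and 1.32 against 0.569 and 0.685. In the *Dlx*-positive cells without *Top2a*, *Setd5* stood at 1.17 and 1.23 against 0.490 and 0.724, and the change differed by 0.03 (SE 0.21, limma, adjusted p 0.99). The call rests on both Setd5+/+ libraries: without WT3 or without WT6 the log2 change stayed at -0.87 but the adjusted p from limma was 0.706 or 0.416, and without the trend of the variance it was 0.436.

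Across all 7462 genes tested in the cycling *Dlx*-positive cells, limma called 3 higher (0.0402% of those tested) and 5 lower (0.067%) in Setd5+/-. At least 4 of these 8 were sex genes. *Xist*, the RNA that silences an X chromosome, was at 31.0 in WT3, 28.1 in WT6, 0.00731 in Het5 and 0.00968 in Het9 (limma, adjusted p 6.05e-25). *Tsix* (chrX:103431517-103484957) overlaps *Xist* on the other strand, so their reads cannot be told apart without strand, and it was at 1.27, 0.991, 0 and 0 (limma, adjusted p 5.62e-12). The Y-linked genes *Eif2s3y* and *Ddx3y* were at 0 in both Setd5+/+ libraries. They were at 0.537 and 0.656, and at 0.602 and 0.533, in Het5 and Het9 (limma, adjusted p 4.03e-09 and 4.34e-09). *Kdm5d* and *Uty* of the same chromosome were at 0 in both Setd5+/+ libraries and between 0.0908 and 0.211 in the Setd5+/- ones.

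The other called genes were *Lgals1*, *Erdr1* and *Fos*. *Lgals1* (chr15:78926725-78930465), a galactoside-binding lectin, was at 0.725 and 0.898 CP10k in the Setd5+/+ libraries, WT3 first, and at 1.73 and 1.31 in the Setd5+/- libraries, Het5 first. It rose by 0.82 on the log2 scale (SE 0.15, limma, adjusted p 0.0176), but 8 of 15 alternative settings did not call it, among them those without WT3, WT6 or Het5, where the change was 0.68, 0.96 and 0.63. In G2/M cells only it was 0.40, and without the trend it stayed at 0.82. *Erdr1* was at 2.17, 4.17, 1.37 and 0.990 and changed by -1.30 (SE 0.19, limma, adjusted p 0.00051). Its place on the genome is not given here, so it was not sorted as a sex gene or another gene. Without WT6 the change was -0.84 and the call was lost (limma, adjusted p 0.505), and without the trend the change stayed at -1.30 and the call was lost too (limma, adjusted p 0.944). *Fos* (chr12:85473890-85477273), an immediate early gene that dissociation also switches on, was at 0.843, 0.595, 0.260 and 0.394. Its change of -0.94 (SE 0.19, limma, adjusted p 0.0499) was called under only 3 of the 15 alternatives and not without WT3, WT6 or Het5, where the change was -0.72, -1.16 and -0.71. Over all 15 it ran from -1.22 in G2/M cells only to -0.37 with a pseudocount of 1. Of other immediate early genes listed, *Egr1* was at 0.143, 0.0985, 0.0566 and 0.0446, under the limit for testing, and *Jun* was at 0.873, 0.955, 0.902 and 1.16. Values of *Junb* and *Ier2*, also listed, are not reported here. Of 19 stress and RNA quality genes tested, 1 was called lower, *Fos*, and 5 including it were lower in each Setd5+/- library than in either Setd5+/+ library, where 16.3% of all genes tested did so.

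Of the genes nearest to the threshold, several stood in order of genotype without passing. *Npy*, a peptide of some interneurons, was at 0.694, 0.375, 0.204 and 0.201, a log2 difference of -1.02 (limma, adjusted p 0.0582). It passed without doublets, without Het5 and without Het9, and without WT3 the difference was -0.65. *Ccnd2* (chr6:127125162-127152193) was at 32.2 and 36.9 in Setd5+/+ and 40.4 and 48.2 in Setd5+/-, a log2 difference of 0.35 (SE 0.08, limma, adjusted p 0.119). Over the 15 alternatives its adjusted p from limma ran from 0.000397 to 1.0, and it passed without Het5 and where cells with a UMI of *Neurod2*, *Neurod6* or *Tbr1* were left out. The difference was 0.48 without Het5, 0.23 without Het9 and 0.18 in G2/M cells only. Within the cells without *Nkx2-1*, both Setd5+/- values of *Ccnd2* also lay above both Setd5+/+ values, while with *Nkx2-1* Het5 (19.4) lay below WT3 (19.6). *Zic1*, a zinc finger gene of the septum and lateral eminence, was at 0.507, 0.585, 0.361 and 0.103, a log2 difference of -1.08 (limma, adjusted p 0.167). It passed without Het5, at -1.67, and without excitatory neuron UMIs, and without Het9 the difference was -0.49. The long noncoding RNA *Gm17750* was at 1.77, 1.74, 2.58 and 2.41 (limma, adjusted p 0.286), and it passed with summed UMIs, with at least 2 UMIs of *Top2a* and without excitatory neuron UMIs.

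For some *Zic* genes, zinc finger factors, Het9 stood apart. *Zic2*, *Zic4* and *Zic5* had no UMI in the 126 cells of Het9, while Het5 had 0.0628, 0.0664 and 0.0552 CP10k of them in that order. *Fgf15* likewise was at 0 in Het9 and 0.0553 in Het5. The pair of Setd5+/+ libraries had 0.124 and 0.116 of *Zic4*. Het9 also had the most *Fabp7*, at 4.18 against 1.99 in Het5. *Ndn*, an imprinted gene, crossed the genotypes, with 0.261 and 0.271 in WT3 and Het9 and 1.28 and 1.13 in WT6 and Het5.

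No gene of the cell cycle lists passed between the genotypes. Of 38 S phase genes tested with limma, 0 passed and 4 had an unadjusted p under 0.05, as had 334 of all 7462 genes. In 12 of them both Setd5+/- libraries lay above both Setd5+/+ libraries and in 4 below, where 16.1% and 16.3% of all genes tested did so, with a median log2 difference of 0.11 against 0.00 for all genes. *Slbp*, which processes histone transcripts, was at 2.95 and 3.59 against 3.63 and 4.04, and *Fen1*, a flap nuclease, at 0.901 and 1.01 against 1.18 and 1.32, each with an adjusted p above the threshold. Of 41 genes of G2 and mitosis, 0 passed (1 by unadjusted p), 2 lay above and 2 below, and the median difference was 0.00. Of 18 G1 regulators tested, 0 passed (3 by unadjusted p), with 4 above and 2 below.

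In the lists of lineage no gene passed either, and their counts stand against the same 16.1% above and 16.3% below for all genes tested. Of 33 ventral factors tested with limma, 0 passed (6 by unadjusted p), with 3 above and 6 below, among them *Nkx2-1* (2.1, 1.79, 1.68 and 1.07), *Lhx8* and *Zic1* on the lower side. The median difference of that list was -0.07. Of 22 genes of neuronal differentiation, 0 passed (4 by unadjusted p), and 9 lay above and 4 below. *Elavl4*, an RNA-binding protein of neurons, was at 3.16 and 2.83 against 3.72 and 3.55, and *Gad1*, the second GABA enzyme, at 0.333 and 0.267 against 0.420 and 0.564. *Meg3*, an imprinted noncoding RNA, was on the lower side at 3.92 and 4.62 against 2.83 and 3.57 (limma, adjusted p 0.609), as were *Gap43*, *Nrxn3* and *Tubb2a*. Of 14 progenitor and radial glia genes tested, 0 passed (3 by unadjusted p), with 2 on each side, and of 10 Notch pathway genes tested, 0 passed (1 by unadjusted p), again with 2 on each side. Of 14 imprinted genes tested, 0 passed (3 by unadjusted p), with 1 above and 5 below. Of the 13 genes tested that the study had chosen from these same samples for its cluster 3, 0 passed (6 by unadjusted p), with 3 above and 5 below. That list is not independent evidence.

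The change with genotype was next compared between the cycling *Dlx*-positive cells and the same lineage without *Top2a*. One gene of 6978 tested passed (0.0143%), *Cdkn1c* (chr7:143458339-143461050, minus strand), an imprinted gene whose product p57 stops the cycle of progenitors that leave it. In the cells without *Top2a* it stood at 4.21 CP10k in WT3, 3.90 in WT6, 1.22 in Het5 and 0.724 in Het9. In the cycling cells it was at 0.969, 0.910, 0.756 and 0.613. The Setd5+/- values were thus far lower than the Setd5+/+ values in the cells without *Top2a* and only a little lower in the cycling cells. The log2 change in the cycling cells was -0.41 (SE 0.16, limma, adjusted p 0.998), and the difference between the changes was 1.58 (SE 0.19, limma, adjusted p 0.000309). Without the trend of the variance on the level, that adjusted p from limma was 0.894. The cycling pallial cells had 0.999, 0.602, 0.900 and 0.697.

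The shape of the *Cdkn1c* values differed as well. Among cells without *Top2a*, 38.0% and 38.3% of the Setd5+/+ cells and 30.8% and 21.7% of the Setd5+/- cells had a UMI of it. Within the cells that had one, the level was 11.1 CP10k in WT3, 10.2 in WT6, 3.98 in Het5 and 3.33 in Het9. The highest cell carried 108 UMIs in WT3 and 96 in WT6, but 15 in Het5 and 4 in Het9. The cycling cells had 15, 8, 6 and 3 at most, with 29.4%, 37.4%, 29.1% and 30.2% of cells detected. Setd5+/+ cells with many *Cdkn1c* transcripts were therefore seen among the cells without *Top2a* and not among the cycling ones. Without *Top2a*, both Setd5+/- libraries were lower among the cells with *Nkx2-1*, at 5.41 and 6.63 against 1.13 and 0.647, and among those without it, at 3.73 and 2.82 against 1.25 and 0.733. In the cycling cells with *Nkx2-1* the values were 1.48 and 1.34 against 1.67 and 0.823, so Het5 lay above both Setd5+/+ libraries. In those without *Nkx2-1* they were 0.751 and 0.777 against 0.462 and 0.569. Here too, genotype and fetal sex cannot be told apart.

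Other genes near the threshold in that comparison did not pass as fitted, and each of those named here passed under 1 to 6 of the alternatives. *Peg3*, an imprinted zinc finger gene, had a difference of 0.94 (SE 0.18, limma, adjusted p 0.116), *Cdk6* of 1.01 (adjusted p 0.267 from limma) and *Efna5* of 1.19 (adjusted p 0.267 from limma). Over the 15 alternatives these differences ran from 0.56 to 1.06, from 0.47 to 1.36 and from 0.44 to 1.46, in that order. *Fabp7* had a difference of -1.13 (SE 0.21, limma, adjusted p 0.107). It passed under 6 of 15 alternatives, with summed UMIs, without excitatory neuron UMIs, without doublets, in cells without a UMI of *Nkx2-1*, *Lhx6* or *Lhx8*, without WT6 and without Het9. Over the 15 its adjusted p from limma ran from 1.78e-12 to 0.956, and without Het5 the difference was -0.62. *Fabp7* was at 1.12 and 1.54 in the Setd5+/+ and 4.26 and 4.27 in the Setd5+/- cells without *Top2a*. *Apoe*, *Neurod6*, *Tle1* and *Npy* had differences of -1.27, -1.34, -0.87 and -0.92, with adjusted p from limma of 0.267 to 0.38. *Nnat*, an imprinted membrane protein gene, was at 19.6, 20.2, 20.9 and 18.0 in the cycling cells and at 46.2, 47.2, 41.5 and 32.8 without *Top2a*.

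**Figure D5:**
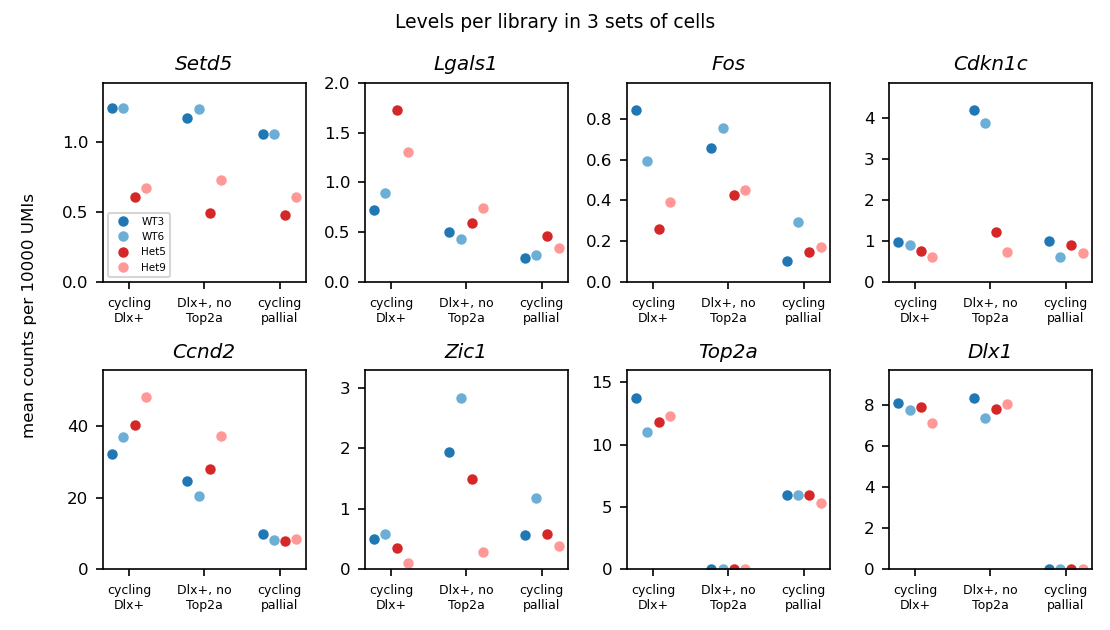
Levels per library in the 3 sets of cells. The y axes are mean counts per 10000 UMIs from 0, and each point is 1 library. *Setd5* is lower in both Setd5+/- libraries in every set, while *Cdkn1c* falls to 1.22 and 0.724 in the *Dlx*-positive cells without *Top2a*.

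Against the cycling pallial cells, 0 of 7095 genes passed in limma (0%), with 284 at an unadjusted p under 0.05. The change of *Setd5* differed by -0.01 (SE 0.25, limma, adjusted p 0.997). *Ccnd2* was at 9.99 and 8.23 against 8.08 and 8.37 in the pallial cells and had a difference of 0.49 (SE 0.12, limma, adjusted p 0.995). *Cdca7*, a chromatin factor of S phase, had a difference of 0.67, the replication factor gene *Mcm10* of 1.31, *Tmsb4x* of 0.28 and *Gm5617* of 1.44. Over the 15 alternatives the difference of *Gm5617* ran from 0.012 to 2.07. *Lmo1*, *Scrn1*, *Gpsm2*, *Cdca2* and *Sdf2l1* had -0.91, -1.07, -1.13, -0.92 and -1.16. The smallest adjusted p over all genes was 0.995, so these 10 are named by order only.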

How the data were processed

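CD24+ CD45- cells of E18.5 cortex, 1 droplet library (10x Genomics 3' v2 kit) per fetus from 2 fetuses per genotype, were measured. The authors deposited 1 table of 16600 genes and 6562 cells, with natural log values, ln(1 + CP10k) of a gene in a cell. Cell Ranger 2.1, Seurat 2.3.0 and mm10 are listed in the notes on processing that the submitters gave. Annotation, strandedness and limits on cells: not given in the sources used here. Cell name prefixes give the genotype of a library and no replicate number, so libraries are named by prefix. Whole UMIs came out for 100% of the 14848520 values above 0 (tolerance 0.001).

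Members were found by the gene rule on these values, without cells whose barcode is under all 4 prefixes. Between genotypes, limma 3.58.1 in R 4.3.3, letting the variance follow the mean level, was run on log2(mean CP10k of the library + 0.1) for genes averaging 0.1 CP10k or more over the libraries, p-values were adjusted after Benjamini and Hochberg, and 0.05 was the threshold. A difference of genotype changes was fitted on the difference in log2 level between both sets of cells of each library. The recovered UMIs entered no count model. Shares were compared by the exact two-sided permutation test. Intervals of shares are exact binomial at 95%. The limma step was tested on simulated data. Doublets called by Scrublet (64 cells, 16 of them members) were kept, and leaving them out was an alternative. Coordinates of genes are those of GENCODE M21 on GRCm38.

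Named genes are those of the rule and of fixed lists, up to 10 called genes a direction in each comparison, filled to 5 by p where fewer were called, the first 10 by ratio of levels and the 5 highest genes; some of these are not reported here. Genes shown beyond these, the split by *Nkx2-1* and the *Hba-a1* limit were chosen after values were seen. The members and lists were chosen with earlier results of these data known. Alternatives for genes were pseudocounts of 0.01 and 1, no filter, summed UMIs, no trend, cells thinned to 3000 UMIs, at least 2 UMIs of *Top2a*, no cells with excitatory neuron UMIs, no doublets, G2/M cells only, and each library left out. Cells without a UMI of *Nkx2-1*, *Lhx6* or *Lhx8* were a further one, chosen after seeing the data. Keeping the shared barcodes was an alternative for the shares only. Software also included Python 3.11.15, numpy 2.4.6, pandas 2.3.3, scipy 1.17.1, scanpy 1.11.5 and matplotlib 3.10.9. Other data of the study were not used here.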

Additional observations from a re-analysis of the deposited data

Results flagged for a closer look

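The change of *Cdkn1c* with genotype differed between the cycling *Dlx*-positive cells and the *Dlx*-positive cells without *Top2a* by 1.58 on the log2 scale (SE 0.19, limma, adjusted p 0.000309). It is listed because the difference itself was tested and passed. Both Setd5+/- libraries were lower than both Setd5+/+ libraries in each set of cells, by far more without *Top2a*. Over 15 alternatives the difference ran from 1.16 to 1.79, and it passed in 14. It missed without the trend of the variance (limma, adjusted p 0.894). The part of fetal sex was not tested, since sex and genotype cannot be told apart.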

How the results depend on the processing

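No paired analysis was possible because the cell name prefixes carry no replicate number that the genotypes share. Each count below is of genes called by limma, and with a library left out the lone library of a genotype is assumed to vary like the others. Between genotypes 8 genes were called with all settings as reported, against 4 without the trend and 15 without cells with excitatory neuron UMIs, and from 5 to 52 with a library left out (5 without WT3, 5 without WT6, 52 without Het5, 21 without Het9). All 8 were among the 15, and 6 of them among the 52. For the difference against the *Dlx*-positive cells without *Top2a*, 1 gene was called, against 20 with summed UMIs, 0 without the trend (389 at an unadjusted p under 0.05), 2 without excitatory neuron UMIs, 2 without doublets and 3 in cells without a UMI of *Nkx2-1*, *Lhx6* or *Lhx8*, an alternative chosen after seeing the data, and from 3 to 22 with a library left out. For the difference against the cycling pallial cells, 0 were called, against 1 with at least 2 UMIs of *Top2a* (*Lmo1*), 1 without excitatory neuron UMIs (*Tmsb4x*) and from 0 to 7 with a library left out. The causes were not tested.

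The genotype difference in the share of *Dlx*-positive cells with *Top2a* was 3.28 points and ran from -1.57 to 8.13 with a library left out, below 0 without WT6 (-1.57) and without Het5 (-0.234). The share of all cells differed by -1.87 points and ran from -3.14 to -0.604. Of 494 values of 33 named gene results under the alternatives, 431 kept their side of the threshold, 37 newly passed, 26 no longer passed and 0 reversed. With 2 libraries a genotype, depth and the number of fetuses limit small changes, and genes under 0.1 CP10k were not tested.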
